A study of Mus musculus with 6 samples.

Results

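The class II odorant receptor genes of mouse chromosome 7 were 108 of the 1162 receptor genes in the deposited receptor table. They were chosen by position and gene type: receptors on chromosome 7 of GRCm39 whose start, in the deposited table, lies outside the block that holds the class I receptors, and that are not annotated as pseudogenes. Olfr17 and Olfr2 and 8 pseudogene models on the same chromosome parts were left out. A family number of the MOR naming system was found for 105 of the 108, all between 101 and 283, and 0 fell at or below 42, the range of the class I families. The remaining receptors were 128 class I receptors on chromosome 7, 916 receptors on other chromosomes and the 10 left out.

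Odorant receptors are G protein-coupled receptors in the cilia of olfactory sensory neurons. Each mature neuron expresses 1 receptor gene, chosen from genes that lie in clusters in heterochromatin, and axons of neurons with the same receptor meet in the same glomeruli of the olfactory bulb. Class I receptors resemble those of fish, sit in a single cluster in the mouse and are found mostly in dorsal epithelium, while class II receptors make up most of the repertoire and are spread over many chromosomes and epithelial zones.

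Bulk RNA-seq libraries came from dissected nasal conchae of 6 mice, all c57Bl6/ICR crossbred, labelled male and 3 months old. The 3 control mice had the genotype WT, no treatment and bulbs labelled normal in size. The 3 sFlt1 mice carried camk2a-tTa and tet-sFlt1, in which the promoter of Camk2a, a kinase of forebrain neurons, drives a tetracycline-controlled activator of soluble Flt1, a decoy that binds vascular endothelial growth factor. Water had taken the place of tetracycline from embryonic day 13.5, and their bulbs at 2 months measured by MRI 28%, 29% and 14% of normal in replicates 1, 2 and 3.

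Library totals ranged from 28832424 to 46444862 counts, and receptor totals from 179255 to 208572 in controls against 74429, 204799 and 75595 in sFlt1 replicates 1, 2 and 3. The members held 29490, 24061 and 27523 counts in the controls and 12571, 31819 and 11745 in the sFlt1 mice. Flt1 itself measured 3.70, 2.81 and 11.1 CPM (counts relative to the library size after TMM scaling) in the controls against 6.42, 2.35 and 9.78 CPM, so the groups overlapped; no source used here says whether transgene reads count towards Flt1. The marker of mature olfactory neurons, Omp, was present in every library, from 465.3 to 4051 CPM. Some libraries stood apart from their labels. Control replicate 1 and sFlt1 replicate 3, both labelled male, held 709.1 and 523.2 CPM of Xist against at most 0.371 CPM in the other 4. Control replicate 3 held 568.0 CPM of Gad1, a marker of inhibitory brain neurons, against at most 27.3 CPM elsewhere.

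The 108 members lie in 6 runs separated by more than 1 Mb or by the class I block. From the start of the chromosome, these are 8 members from Olfr1344 to Olfr1350, 2 members (Olfr291 and Olfr290), 15 members from Olfr310 to Olfr292, 2 members (Olfr520 and Olfr521), and then, beyond the class I block, 62 members from Olfr693 to Olfr519 and 19 members from Olfr522 to Olfr541. The largest run spans chr7:106274212-108493627 and the most distal chr7:139739912-140285519 (GRCm39). Members belong to 22 MOR families, of which family 204 is the largest with 30 members, all between Olfr467 and Olfr510. For 102 of the 108, the receptor with the closest protein was another member. Counts of the most alike pairs are uncertain because reads may be shared between copies: Olfr707 and Olfr1532-ps1 had 99.0% identical proteins, Olfr715 and Olfr715b 98.7%, and Olfr290 and Olfr291 96.5%. The annotation calls Olfr1532-ps1 and Olfr709-ps1 protein-coding although their symbols mark pseudogenes.

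Upstream sequences are shown for the 4 members named by level, p, place in a run or protein identity of a pair whose RefSeq start lay within 25 bases of a GENCODE transcript start. Olfactory receptor promoters are known for sites of homeodomain factors such as Lhx2 and of Olf/Ebf factors. RefSeq gave windows for 94 members, but 69 of those begin at the start codon rather than at a transcript start, and 13 windows were usable. The 250 bases before the start, 5′ to 3′ and from RefSeq on GRCm38.p6 (a different build from that of the counts), are chr7:140507319-140507568 on the minus strand for Olfr536, chr7:86688091-86688340 on the plus strand for Olfr292, chr7:106975452-106975701 on the minus strand for Olfr711 and chr7:107129483-107129732 on the minus strand for Olfr715. Capitals mark matches on either strand to the homeodomain core TAATNA or the Olf/Ebf core CCCNNGGG.
Olfr536 upstream bases: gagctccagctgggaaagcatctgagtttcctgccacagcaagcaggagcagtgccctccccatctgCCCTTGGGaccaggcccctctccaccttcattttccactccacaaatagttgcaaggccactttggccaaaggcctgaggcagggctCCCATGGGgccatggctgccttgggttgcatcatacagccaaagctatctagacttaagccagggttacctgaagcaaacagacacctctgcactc
Olfr292 upstream bases: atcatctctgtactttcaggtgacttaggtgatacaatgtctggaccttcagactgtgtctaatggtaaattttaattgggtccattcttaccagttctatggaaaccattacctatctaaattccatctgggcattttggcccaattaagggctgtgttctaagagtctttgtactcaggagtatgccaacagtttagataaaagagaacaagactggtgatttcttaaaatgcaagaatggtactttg
Olfr711 upstream bases: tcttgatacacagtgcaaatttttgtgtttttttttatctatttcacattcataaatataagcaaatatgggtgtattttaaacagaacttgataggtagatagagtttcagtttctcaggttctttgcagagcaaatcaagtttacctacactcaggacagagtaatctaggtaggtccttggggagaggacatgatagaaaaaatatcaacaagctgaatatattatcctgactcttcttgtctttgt
Olfr715 upstream bases: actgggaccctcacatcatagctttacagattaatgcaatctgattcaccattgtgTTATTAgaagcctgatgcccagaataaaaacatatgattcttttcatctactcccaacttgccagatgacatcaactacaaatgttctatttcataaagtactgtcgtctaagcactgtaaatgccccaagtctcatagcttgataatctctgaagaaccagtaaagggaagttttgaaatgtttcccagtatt
Olfr536, the member with the most counts, had 2 matches to CCCNNGGG and 0 to TAATNA, and Olfr715 had 1 match to TAATNA. Olfr292 and Olfr711 had 0 matches to either motif. Olfr710, whose counts are given below for another reason, also had a usable window, with 1 match to each motif. TAATNA was found in 8 of the 13 usable windows (61.5%) against 24.3% of all 32851 windows of the same length in the table, and CCCNNGGG in 2 (15.4%) against 11.8%. The usable windows had a mean GC content of 38.4% against 53.2% in all windows.

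Levels differed widely among the members. Summed over the 6 libraries they ran from 10 to 18510 counts with a median of 514. Per kilobase of exon, the highest mean level in controls was that of Olfr536, at 23.6 ± 14.7 CPM per kb (SD, n = 3), followed by Olfr533 at 22.8 ± 5.82, Olfr309 at 13.4 ± 5.2002 and Olfr1348 at 10.05 ± 0.216. Olfr536 and Olfr533 did not differ beyond their spread, and Olfr309 and Olfr1348 did not either. Olfr536 and Olfr533 both lie in the most distal run and belong to the same family (252). Olfr536 took 4.31%, 12.0% and 26.6% of member counts in controls and 11.9%, 7.44% and 27.1% in sFlt1 mice, so the lowest and the second highest value were both controls.

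The 10 highest members of each mouse held 42.1%, 47.4% and 59.2% of member counts in controls and 59.4%, 48.5% and 59.5% in sFlt1 mice. The effective number of members, the exponential of the Shannon entropy of their counts, was 50.8, 46.7 and 29.0 in controls and 34.2, 46.0 and 29.1 in sFlt1 mice. Both measures overlapped between the groups. After each library was thinned to 74429 receptor counts, the expected number of members detected was 102.1, 105.0 and 99.5 in controls and 107.0, 105.6 and 103.0 in sFlt1 mice, out of 108 (exact permutation test over mice, two-sided, p = 0.2). Without thinning, 103 to 106 members in controls and 103 to 108 in sFlt1 mice had at least 1 count.

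As a group, the class II receptors of chromosome 7 had a lower mean RNA level in sFlt1 mice, a difference that did not exceed the spread between mice, and a larger share of all receptor counts. Summed, they stood at 873.8, 856.2 and 614.7 CPM in the 3 controls, against 440.8, 693.7 and 269.7 CPM. The means were 781.5 ± 145 and 468.1 ± 213 CPM (SD, n = 3 each), sFlt1 replicate 2 lay above control replicate 3, and the log2 difference of −0.83 had an exact two-sided permutation p of 0.2. With 3 mice against 3 the smallest p this test allows is 0.1. The log2 difference was −0.48 without sFlt1 replicate 3 and −0.39 without both libraries that held Xist reads, and −0.99 without control replicate 3. In bulk tissue, fewer neurons of a type and less receptor RNA per neuron cannot be told apart.

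Of all receptor counts, the members took 14.1%, 13.4% and 14.1% in controls and 16.9%, 15.5% and 15.5% in sFlt1 mice. Every sFlt1 mouse lay above every control. The means were 13.9 ± 0.41% and 16.0 ± 0.78%, a 1.15-fold difference (log2 0.20), and the exact permutation p of 0.1 is the smallest possible. It was 0.24 on the log2 scale without both libraries with Xist reads and 0.21 without control replicate 3. Without Olfr309, Olfr533 and Olfr536, the 3 members with the most control counts, the log2 difference was 0.19 but the groups overlapped (exact p = 0.3).

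**Figure D1:**
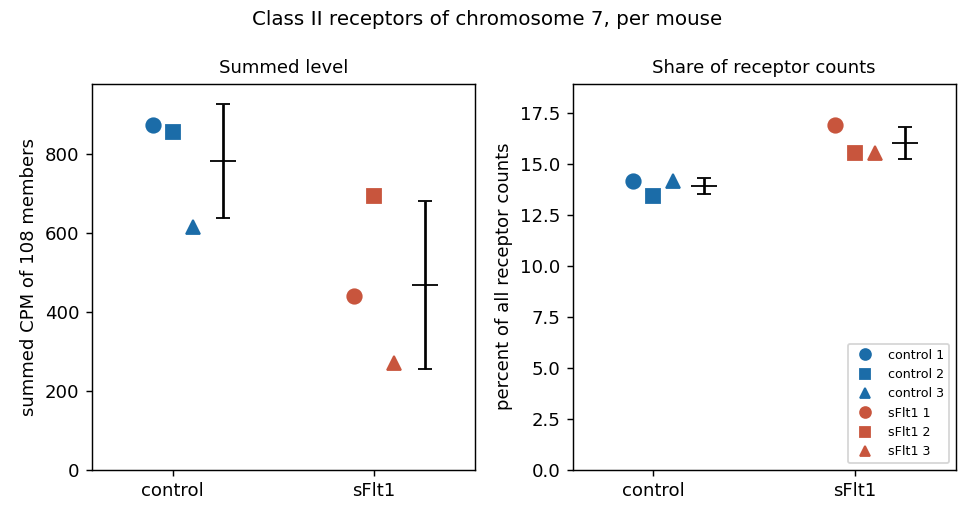
Summed level of the 108 members in CPM (left axis panel) and their share of all receptor counts in percent (right panel) for each mouse, with symbols for the replicates and black bars for the mean ± SD of 3 mice. The sFlt1 CPM values, from 269.7 to 693.7, overlap with those of the controls, from 614.7 to 873.8, whereas the 3 sFlt1 shares, from 15.5% to 16.9%, lie above the control shares of 13.4% to 14.1%.

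Relative to receptors on other chromosomes the members were higher in every sFlt1 mouse, and relative to class I receptors the groups overlapped. The log2 ratio of member counts to counts of the 916 receptors on other chromosomes was −2.48, −2.59 and −2.51 in controls and −2.19, −2.36 and −2.25 in sFlt1 mice, with no overlap (difference 0.26, exact p = 0.1, the smallest possible). The ratio to class I receptors was 1.20, 1.35 and 1.48 in controls and 1.74, 1.90 and 0.633 in sFlt1 mice. These values overlapped (difference 0.079, exact p = 1). Without sFlt1 replicate 3 the difference was 0.47. In that mouse class I receptors took 10.02% of receptor counts against 4.17% to 6.16% in the other mice. The difference turned to −0.16 when sFlt1 replicate 2 was left out and to −0.081 when replicate 1 was.

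The mean of markers of the neurons that make receptor RNA was lower in every sFlt1 mouse. Taken singly, Rtp1, Cnga2 and Gng13 overlapped between the groups. The mean log2 CPM of 12 markers of mature olfactory neurons was 9.47, 9.57 and 9.10 in controls and 8.02, 8.97 and 7.06 in sFlt1 mice, without overlap (difference −1.36, exact p = 0.1). Relative to these markers the members were higher in every sFlt1 mouse, at 0.762, 0.466 and 1.01 log2 units against 0.301, 0.173 and 0.161 (difference 0.54, exact p = 0.1, the smallest possible). A smaller mean fall than that of the markers was not particular to the members. The log2 differences in summed CPM were −0.91 for class I receptors, −1.08 for receptors on other chromosomes and −1.03 for all receptors. Summed markers of globose basal and precursor cells were 110.7 to 308.2 CPM in controls and 458.0 to 607.4 CPM in sFlt1 mice, with 7 of 7 genes higher, and immune markers were 132.7 to 283.0 CPM against 335.7 to 827.4 CPM, with 5 of 5 higher. Of 8 immature neuron markers 6 were higher, and the summed ranges of 1129 to 1605 and 1493 to 1943 CPM overlapped. All 6 brain neuron markers were lower in sFlt1 mice, with summed levels of 67.2 to 1213 CPM in controls, the highest in control replicate 3, and 8.001 to 78.4 CPM in sFlt1 mice. Sustentacular markers overlapped, at 11006 to 19912 and 10661 to 18584 CPM, and so did glial markers (5 of 5 lower), at 296.7 to 1969 and 71.3 to 309.1 CPM. Motile ciliated markers (4 of 5 higher) did not, at 251.5 to 660.4 and 770.7 to 925.1 CPM. Of the markers in these 8 lists, 0 were at 0 counts in any library. The part of these cell types in the receptor differences was not tested.

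A list of genes around the receptors includes most of the mature neuron markers above, so its levels are not separate evidence. Of 30 genes for receptor choice and odour transduction, 24 had lower and 6 higher estimates, with a median log2 fold change of −0.78 against 0.017 for all genes tested, and 0 passed an adjusted p of 0.05 by edgeR's quasi-likelihood test. The 6 higher were Ldb1, Emx2, Kdm1a, Lbr, Ehmt1 and Ehmt2, all genes of receptor choice. Other choice genes, Lhx2, Ebf1, Ebf2, Ebf3, Ebf4, Cbx5 and Atf5, had lower estimates. The median therefore does not describe the choice genes. At an unadjusted p under 0.05 were 10 lower and 2 higher genes, beside 6.24% and 4.84% of all genes. Those lower included Adcy3, the adenylyl cyclase of the cilia (log2 −1.15 ± 0.46 SE), Ric8b, an exchange factor for its G protein (−1.33 ± 0.38), Ano2, the calcium-gated chloride channel (−1.29 ± 0.43), and Cngb1, a subunit of the cyclic nucleotide-gated channel (−1.32 ± 0.54). Kdm1a, a histone demethylase that acts in receptor choice, and Lbr, the lamin B receptor that disperses receptor gene foci when present, had higher estimates (0.61 ± 0.24 and 0.61 ± 0.25). Lhx2, a homeodomain activator of receptor genes, was at 180.1 to 316.1 CPM in controls and 176.3 to 261.6 CPM in sFlt1 mice (log2 −0.09 ± 0.27), and its cofactor Ldb1 at 114.7 to 152.1 and 115.2 to 211.0 CPM (0.27 ± 0.26).

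In the test of single genes on the CPM scale, 93 of the 108 members had enough counts, and 77 had lower and 16 higher estimates in sFlt1 mice. The 15 members left out had at most 74 counts over all libraries. The median log2 fold change of the members tested was −0.83, against −0.95 for class I receptors and −1.13 for receptors on other chromosomes. Over all 108 members without a filter it was −0.81, with 86 lower and 22 higher. By edgeR's quasi-likelihood test 0 members passed an adjusted p of 0.05, as did 0.0% of all 19899 genes in either direction, and the smallest adjusted p was 0.42. At an unadjusted p under 0.05 there were 20 members, all lower (21.5% of those tested, beside 6.24% lower and 4.84% higher of all genes), and in 19 members every sFlt1 mouse lay below every control (20.4% beside 9.51%), while in 0 members every sFlt1 mouse lay above (beside 8.76%). Under that p, in either direction, were 34 of 111 class I receptors, 230 of 820 on other chromosomes and 285 of all 1028 receptors. The excess over all genes was thus shared by other receptors and not particular to the members. DESeq2 on the same counts called 6 of 96 members lower and 0 higher, beside 1.56% and 0.631% of all genes. Among receptors with a p it called 12 of 128 class I and 85 of 915 on other chromosomes, against 6 of 107 members. At an unadjusted p under 0.05 it had 30 of 107 lower, beside 4.68%, and 0 higher, beside 3.84%. The authors' deposited table, made with DESeq2 per the submitters' notes, lists 6 of 107 lower beside 1.11% of its genes and 0 higher beside 0.446%. The median by edgeR was −1.41 without sFlt1 replicate 2 and −0.46 without both libraries with Xist reads, and DESeq2 called 25 of 95 members without sFlt1 replicate 2, all lower, beside 3.78% of all genes lower in that setting.

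The 6 members that DESeq2 called lower were Olfr522, Olfr506, Olfr488, Olfr1346, Olfr527 and Olfr525. Olfr522, a family 103 receptor, had 408, 498 and 549 counts in controls and 56, 90 and 89 in sFlt1 mice, or 12.1, 17.7 and 12.3 CPM against 1.96, 1.96 and 2.04 CPM. The groups were far apart and the sFlt1 mice nearly equal. Its log2 fold change was −2.81 ± 0.32 (SE), with an unadjusted edgeR p of 5.1e-05, an edgeR adjusted p of 0.42 (0.14 to 0.80 over the alternatives) and a DESeq2 adjusted p of 3.38e-14 (1.52e-14 to 1.13e-08 over the alternatives). The log2 fold change ran from −2.92 to −2.61 when any 1 mouse was left out, over both tools.

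Olfr506 and Olfr488 are both family 204 receptors of the largest run. Olfr506 measured 6.07, 4.31 and 5.16 CPM in controls against 1.16, 1.05 and 0.804 CPM (log2 −2.37 ± 0.39, DESeq2 adjusted p = 1.63e-07, from 8.16e-08 to 0.000515 over the alternatives). Olfr488 measured 6.58, 5.02 and 5.58 CPM in controls against 0.842, 1.57 and 1.13 CPM (log2 −2.27 ± 0.41, DESeq2 adjusted p = 2.95e-06, from 2.48e-06 to 0.00318 over the alternatives). In both genes every sFlt1 mouse lay well below every control, although edgeR's adjusted p was 0.43 for each.

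Olfr1346, in the first run of the chromosome, measured 4.33, 3.95 and 13.8 CPM in controls against 1.68, 1.57 and 0.712 CPM. Control replicate 3 stood well above the other controls, which in turn lay above every sFlt1 mouse. Its log2 fold change was −2.48 ± 0.66 with all mice (DESeq2 adjusted p = 0.0086, up to 0.11 over the alternatives; edgeR adjusted p = 0.43) and −1.65 without control replicate 3. Olfr527 and Olfr525, close to Olfr522 in the most distal run, both belong to family 251. Olfr527 measured 23.4, 15.9 and 9.58 CPM in controls against 3.16, 6.67 and 3.49 CPM (log2 −1.87 ± 0.47, DESeq2 adjusted p = 0.012, up to 0.13 over the alternatives; edgeR adjusted p = 0.43). Olfr525 measured 10.6, 11.4 and 5.03 CPM in controls against 2.00, 3.18 and 0.850 CPM (log2 −2.16 ± 0.59, DESeq2 adjusted p = 0.015; edgeR adjusted p = 0.43).

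Of the members with higher estimates on this scale, 0 passed the threshold by either tool with all mice. Olfr524 measured 6.19, 6.08 and 5.09 CPM in controls against 11.6, 14.8 and 4.55 CPM (log2 0.84 ± 0.46, edgeR adjusted p = 0.53). Replicates 1 and 2 of the sFlt1 mice lay above the controls and replicate 3 below them, and DESeq2 called it when sFlt1 replicate 3 was left out (smallest adjusted p over the alternatives 0.000922). The groups overlapped in Olfr292 (0.82 ± 0.63), Olfr711 (0.56 ± 0.63), Olfr539 (0.44 ± 0.46) and Olfr1347 (0.37 ± 0.41), with edgeR adjusted p-values from 0.64 to 0.76. With 1 mouse left out at a time they ran from 0.48 to 1.69 for Olfr292, from 0.18 to 1.01 for Olfr711, from 0.10 to 0.78 for Olfr539 and from 0.15 to 0.66 for Olfr1347, lowest without control replicate 2, sFlt1 replicate 2, sFlt1 replicate 2 and sFlt1 replicate 1 in that order. Olfr524 was at 0.48 without sFlt1 replicate 2. DESeq2 also called Olfr711 higher without both libraries with Xist reads (adjusted p = 0.00215) and Olfr6 without sFlt1 replicate 3.

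Of the members with the highest levels per kilobase, 0 were called by either tool with all mice. Olfr533 measured 78.5, 71.8 and 46.7 CPM in controls against 45.5, 70.1 and 21.6 CPM (log2 −0.52 ± 0.42, edgeR adjusted p = 0.66), and Olfr1348 31.1, 29.8 and 30.2 CPM against 31.4, 32.35 and 10.75 CPM (−0.29 ± 0.40, edgeR adjusted p = 0.81). Both overlapped, with sFlt1 replicate 3 the lowest. Olfr309 did not overlap, at 61.8, 42.7 and 27.6 CPM in controls against 26.4, 21.9 and 7.62 CPM (−1.24 ± 0.50, edgeR adjusted p = 0.44). Nor did Olfr60, at 21.2, 23.0 and 16.6 CPM against 9.64, 16.1 and 9.345 CPM, or Olfr693, the first member of the largest run, at 16.4, 19.0 and 12.3 CPM against 5.22, 7.48 and 1.01 CPM. Olfr6, a family 103 receptor of that run, overlapped, at 17.3, 21.2 and 18.3 CPM against 29.0, 31.9 and 5.97 CPM.

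**Figure D2:**
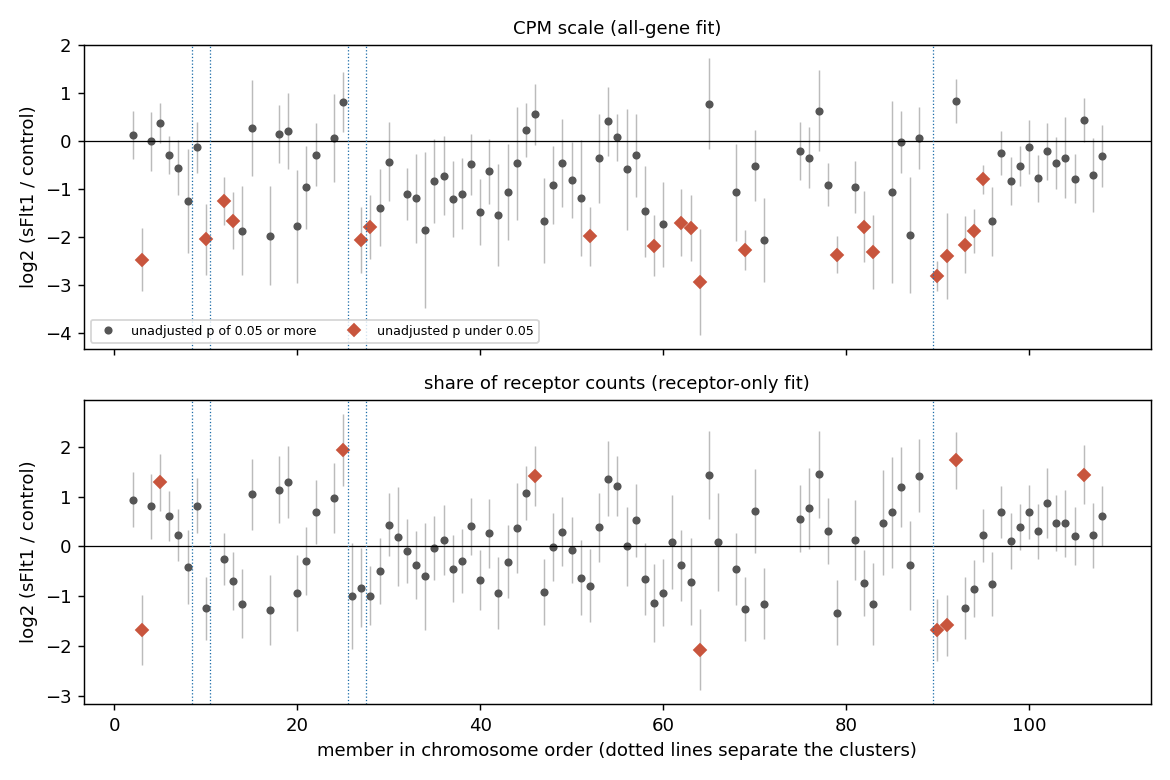
Log2 fold change of sFlt1 over control ± SE for each tested member in chromosome order, on the CPM scale (upper panel, 93 members) and as a share of receptor counts (lower panel, 98 members), with diamonds for an unadjusted p under 0.05. In the upper panel 77 members lie below 0 and all 20 diamonds are among them; in the lower panel 53 lie above and 45 below 0, with 5 diamonds above and 4 below.

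Taken as shares of all receptor counts, which removes what all receptors have in common, 53 of 98 members tested had higher and 45 lower estimates. The median log2 fold change of the members was 0.12, against 0.11 for class I receptors, −0.19 for receptors on other chromosomes and −0.12 for all receptors. With TMM factors computed on receptors the median of all receptors moved to 0.088 and that of the members to 0.34, with 57 higher and 41 lower, and without control replicate 3 the members' median turned to −0.10. By edgeR's quasi-likelihood test 0 members and 0.0% of the 1059 receptors passed an adjusted p of 0.05 (smallest among members 0.17). Under an unadjusted p of 0.05 were 5 members higher (5.1%, beside 5.57% of all receptors) and 4 lower (4.08%, beside 6.61%). Every sFlt1 mouse lay above every control in 10 members (10.2%, beside 6.99%) and below in 8 (8.16%, beside 10.3%), shares near those of all receptors. DESeq2 called 1 member, Olfr524, higher (beside 1.94% of receptors) and 0 lower (beside 0.793%), and at an unadjusted p under 0.05 it had 8 of 107 lower, beside 7.25%, and 6 higher, beside 6.99%. The authors' deposited receptor table lists 2 of 106 members higher, Olfr524 (log2 2.06, adjusted p = 0.0071) and Olfr539 (log2 1.80, adjusted p = 0.029), beside 2.69% of its receptors, and 0 lower, beside 0.434%. Its values are labelled double normalized, so they are not on the same scale as the shares. As shares, edgeR put Olfr524 at 1.73 and Olfr539 at 1.45.

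Olfr524 took 0.1002%, 0.0954% and 0.117% of receptor counts in controls and 0.446%, 0.332% and 0.262% in sFlt1 mice. Every sFlt1 mouse lay above every control. Its log2 fold change was 1.73 ± 0.58, with an edgeR adjusted p of 0.17 (0.12 to 0.51 over the alternatives) and a DESeq2 adjusted p of 0.032 (0.012 to 0.24 over the alternatives). Olfr539, a family 253 receptor, took 0.113%, 0.0787% and 0.0682% in controls and 0.243%, 0.213% and 0.253% in sFlt1 mice, again without overlap (log2 1.45 ± 0.60, edgeR adjusted p = 0.29). Olfr292 (1.94 ± 0.72), Olfr1347 (1.29 ± 0.58) and Olfr472 (1.21 ± 0.61) were also higher in every sFlt1 mouse, with edgeR adjusted p-values of 0.23, 0.34 and 0.41. Olfr711 (1.41 ± 0.60, edgeR adjusted p = 0.30) overlapped, since sFlt1 replicate 3, at 0.147%, lay under control replicate 1, at 0.151%.

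Lower shares were seen in Olfr522, at 0.196%, 0.278% and 0.282% of receptor counts in controls and 0.0752%, 0.0440% and 0.118% in sFlt1 mice (log2 −1.68 ± 0.62, edgeR adjusted p = 0.22). Olfr483 had 84, 121 and 218 counts in controls and 0, 45 and 22 in sFlt1 mice, and its share was 0.0403%, 0.0675% and 0.112% against 0%, 0.0220% and 0.0291% (log2 −2.08 ± 0.81, edgeR adjusted p = 0.25). The count of 0 in sFlt1 replicate 1 was out of 74429 receptor counts. Olfr525 and Olfr506 had log2 fold changes of −1.24 ± 0.63 and −1.33 ± 0.65 with no overlap (edgeR adjusted p-values 0.41 and 0.40), while Olfr1346 (−1.68 ± 0.70) and Olfr523 (−1.58 ± 0.61) overlapped (edgeR adjusted p-values 0.30 and 0.24). Olfr1346 was at −0.50 without control replicate 3, and Olfr523 at −1.02 without control replicate 2.

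**Figure D3:**
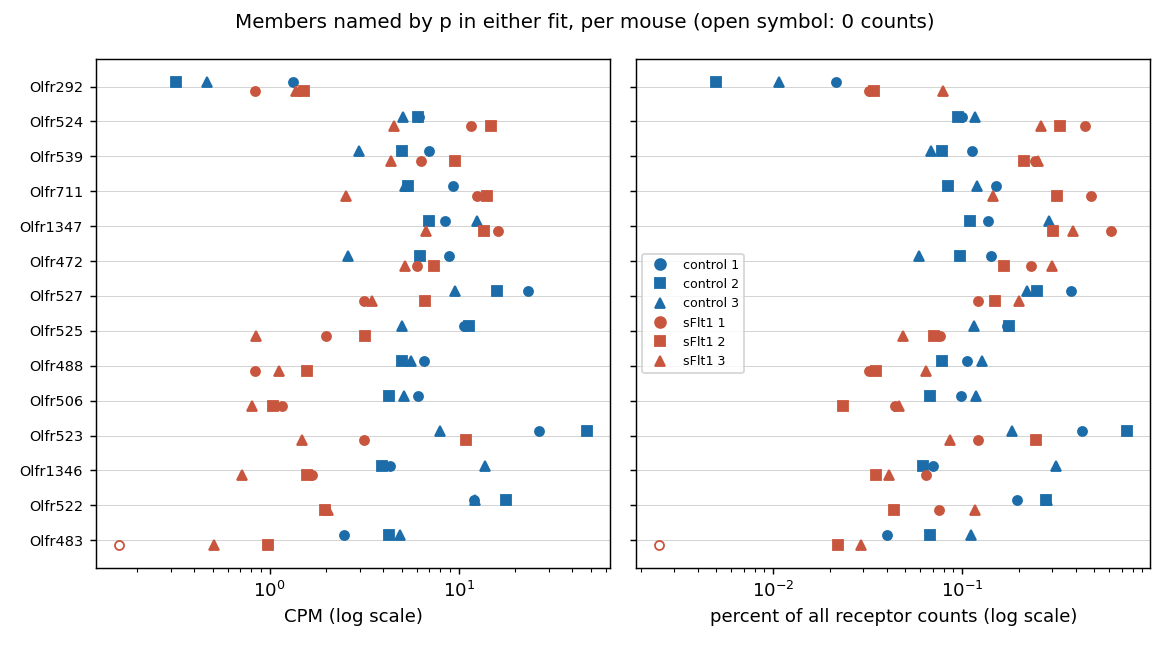
CPM (left) and percent of receptor counts (right), both on log axes, of 14 members, 1 symbol per mouse: those with the smallest p for a higher and, separately, for a lower estimate in each of the tests, so some lower members with a smaller p than the higher ones are not shown, with an open symbol at the left edge for 0 counts. Olfr522, Olfr506, Olfr488, Olfr527, Olfr525 and Olfr483 lie lower in every sFlt1 mouse in both panels, and Olfr524, Olfr292, Olfr539, Olfr1347 and Olfr472 are higher in every sFlt1 mouse in the right panel alone.

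Neighbouring genes had estimates of opposite sign. Olfr522, Olfr523, Olfr524 and Olfr525 are the first 4 members of the most distal run, within chr7:139739912-139907538 (GRCm39), and their log2 fold changes as shares were −1.68, −1.58, 1.73 and −1.24. Olfr522 and Olfr524 are both family 103 receptors. Olfr523, of family 104, ranged widely among controls, at 26.6, 47.7 and 7.995 CPM, and overlapped with the sFlt1 mice, at 3.16, 10.99 and 1.49 CPM. The pair Olfr291 and Olfr290, 96.5% identical in protein, also differed: Olfr291 had 959, 334 and 504 counts in controls and 270, 1216 and 487 in sFlt1 mice, which overlapped, and Olfr290 had 314, 422 and 267 against 63, 206 and 26, which did not. Reads shared by these copies make each value uncertain. Of Olfr707 and Olfr1532-ps1, the latter had 153, 89 and 88 counts in controls against 17, 120 and 3, and the former 42, 41 and 24 against 19, 53 and 11, both overlapping. Olfr715 had 93, 144 and 93 counts in controls against 32, 185 and 22, and Olfr715b 52, 72 and 27 against 16, 118 and 12. In both near-identical pairs sFlt1 replicate 2, the sFlt1 library with the most receptor counts, was the highest of its group. It was so as shares too, though only narrowly for Olfr707, at 0.0259% against 0.0255% in sFlt1 replicate 1.

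By run, the share of receptor counts overlapped between the groups everywhere. The first run, which holds Olfr1348 and Olfr1349, took 1.38%, 1.47% and 2.15% in controls and 3.18%, 2.38% and 1.70% in sFlt1 mice (log2 0.52, exact permutation p = 0.2). The run from Olfr310 to Olfr292 took 1.90%, 1.68% and 1.10% against 1.56%, 1.46% and 1.08% (log2 −0.17, exact p = 0.5). The largest run took 4.22%, 3.74% and 2.91% against 4.36%, 4.24% and 2.94% (log2 0.081, exact p = 0.5), and its difference turned to −0.069 when control replicate 3 was left out, to −0.021 for sFlt1 replicate 1 and to −7.2e-05 for sFlt1 replicate 2. The most distal run took 6.001%, 6.08% and 7.56% against 7.34%, 6.75% and 9.11% (log2 0.24, exact p = 0.3). Adjusted over these 4 runs, every p was 0.5. In CPM the most distal run did not overlap, at 370.8, 387.7 and 329.1 in the controls against 191.4, 301.6 and 158.2. The 2 small runs were described without a test: Olfr291 and Olfr290 together took 0.610%, 0.422% and 0.396% against 0.447%, 0.694% and 0.679%, and Olfr520 and Olfr521 took 0.0273%, 0.0351% and 0.0144% against 0.00537%, 0.00781% and 0.0304%.

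**Figure D4:**
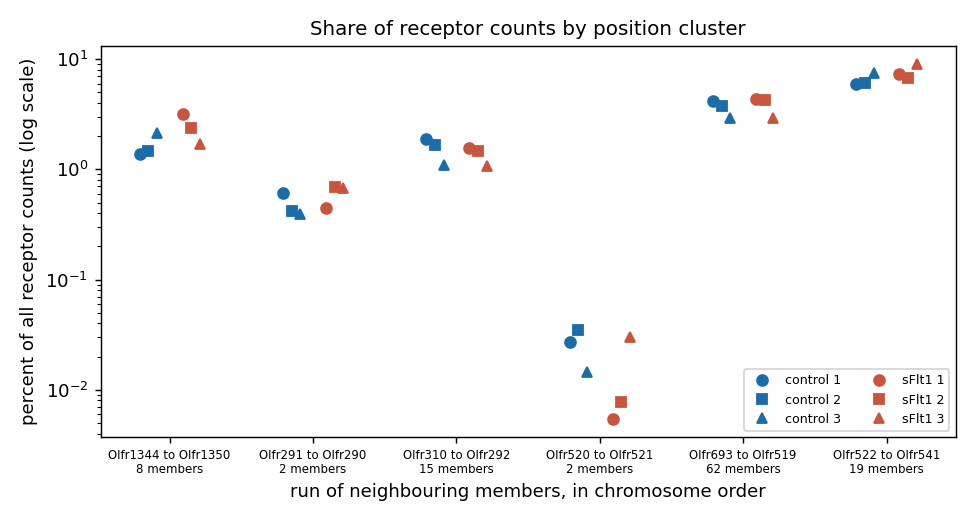
Share of all receptor counts (percent, log axis) held by each of the 6 runs of neighbouring members, 1 symbol per mouse. Control and sFlt1 mice overlap in every run, the 19 members from Olfr522 to Olfr541 hold the largest shares, from 6.001% to 9.11%, and the pair Olfr520 and Olfr521 the smallest, at 0.0351% or less.

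Families differed in direction as shares, given here as a description. In family 103, 7 of 9 members had higher estimates, and its share was 1.65%, 1.69% and 2.57% in controls and 4.63%, 3.04% and 2.25% in sFlt1 mice, so sFlt1 replicate 3 lay among the controls. The 2 lower members were Olfr522 and Olfr1346, both among those DESeq2 called on the CPM scale. All 9 members of family 253, which sit together in the most distal run, had higher estimates, with shares of 1.94%, 1.20% and 1.23% against 1.81%, 2.28% and 2.15%. All 3 members of family 104 had lower estimates, with shares of 0.822 ± 0.434% against 0.347 ± 0.150% (SD, n = 3). In family 283, 9 of 12 were lower, or 7 of 12 with TMM factors on receptors, and in the large family 204 14 of 25 tested were higher, with shares of 1.08%, 0.783% and 0.800% against 0.674%, 0.793% and 1.02%. The counts of families 103, 104, 204 and 253 were the same with those factors. Control and sFlt1 mice overlapped in each of these families.

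Mice of the same group also differed from each other. The median coefficient of variation of a member's share was 46.4% among controls and 52.5% among sFlt1 mice, and 13 members deviated by more than 2 log2 units from their group mean in at least 1 mouse. Olfr700 had 2, 74 and 0 counts in controls and 3, 14 and 13 in sFlt1 mice, and Olfr710 had 40, 11 and 14 in controls and 20, 31 and 0 in sFlt1 mice; both were picked after their values were seen. The order of the members was nonetheless shared. Spearman's rank correlation across the 108 members, which share libraries and gene lengths, was 0.83 to 0.93 between controls, 0.74 to 0.93 between sFlt1 mice and 0.72 to 0.92 across the groups.

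**Figure D5:**
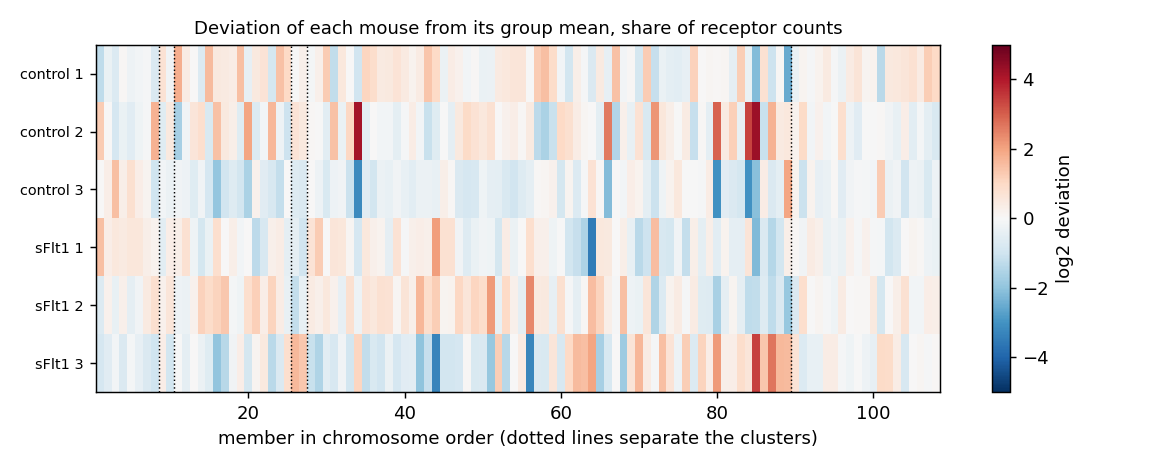
Log2 deviation of each member's share of receptor counts from the mean of its group, with 1 row per mouse and members in chromosome order along the horizontal axis. The largest positive deviations are those of Olfr513 (4.27) and Olfr700 (4.15) in control replicate 2, and the largest negative one is that of Olfr483 in sFlt1 replicate 1 (−3.51).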

How the data were processed

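RNA from dissected nasal conchae of 3 control and 3 sFlt1 mice was sequenced; input was 200 ng each, per the labels' protocols. The submitters' processing notes name cutadapt 3.5, TopHat2 2.2.1, HTSeq 2.0.1, DESeq2 1.26.0 and GRCm39; no source used here gives the counting settings or strand. Counts in the deposited table are whole reads for each gene without normalization, per the file headers, in 55414 entries, of which 6250 had no values. It also holds the authors' log2 fold changes and adjusted p-values, and the deposited receptor tables repeat the counts of receptors with 10 or more counts (0 differed) and give log2 fold changes and adjusted p-values of receptors alone. Another 42 per-sample columns were not used. Columns were matched to mice by the column letters in the sample descriptions.

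Tests used the quasi-likelihood method of edgeR 4.0.16 in R 4.3.3, after filterByExpr, over all genes with TMM factors, and over receptors alone with library sizes set to summed receptor counts; p-values were adjusted by Benjamini-Hochberg over all genes or receptors tested, with a threshold of 0.05. DESeq2 1.42.0 was the main alternative. SE is the log2 fold change divided by the square root of F. CPM is relative to TMM-scaled library sizes. Values per mouse were compared by exact two-sided permutation over the 20 assignments of 3 against 3. Scripts were tested on simulated counts, which were set to vary less between libraries than these data do. Alternatives were other scalings, count filters, DESeq2, each mouse left out, both Xist libraries left out and a replicate block. Replicates are labelled as separate mice, and p-values set the group difference against the spread between them. Shares add to 1 total, so they are not independent. Low counts limit the precision of rare members. Sequences and family numbers came from RefSeq tables of GRCm38.p6, and coding sequences and exon lengths from GENCODE vM21; 106 members matched RefSeq.

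The members, gene lists, tests and the rule for naming genes (the 8 highest control shares per coding kilobase, the smallest p in each direction of each fit, the ends and highest member of each run, and the 3 most alike pairs) were chosen with earlier results of these data known. Olfr700, Olfr710 and the run from Olfr507 to Olfr519 were named after their values were seen.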

Additional observations from a re-analysis of the deposited data

How the results depend on the processing

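On the CPM scale edgeR called 0 members with all mice, without any 1 mouse, with DESeq2 size factors, without TMM factors and with other count filters, whereas DESeq2 called 6, all lower, or 9 without both libraries with Xist reads (7 lower and 2 higher, beside 4.05% and 2.53% of all genes). Without control replicates 1, 2 and 3 in turn DESeq2 called 4, 5 and 7, and without sFlt1 replicates 1, 2 and 3 it called 5, 25 and 10, against 0 by edgeR each time. Of the 10, 2 were higher, beside 0.947% of all genes, and the others in these settings were lower. Between 0.75% and 3.78% of all genes were called lower in these 6 settings. Olfr488, Olfr506 and Olfr522 were among the calls of every DESeq2 setting on this scale. With 1 mouse left out the median log2 fold change ran from −1.41 to −0.54, and without both Xist libraries it was −0.46 by edgeR and −0.52 by DESeq2. As shares of receptor counts, DESeq2 called 1 member, or 6 without both libraries with Xist reads (4 higher and 2 lower, beside 2.32% and 0.947% of receptors). There the DESeq2 calls with 1 mouse left out ran from 0 to 4. The 4, without sFlt1 replicate 2, were 3 lower and 1 higher of 108 members, beside 3.44% and 1.55% of receptors. By edgeR 1 was called, Olfr513 (higher, beside 0.275% of receptors), without control replicate 2. With 1 mouse left out the median of the shares ran from −0.10 to 0.24 by edgeR and up to 0.30 by DESeq2, and reversed without control replicate 3 (−0.10 by edgeR, −0.079 by DESeq2); with TMM factors on receptors it was 0.34. The log2 ratio to class I ran from −0.16 to 0.47 and the share of the largest run from −0.069 to 0.26, both crossing 0 (−0.081 and −0.157 for the ratio without sFlt1 replicates 1 and 2; −0.021 and −7.2e-05 for the run); the cause was not tested. The largest run has no value at a gap of 0.5 Mb, which splits it. No estimate of a gene named by p reversed.

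Whether same-numbered mice pair is not settled, and the numbers come from titles alone. The correlations of their deviations from group means were 0.017, 0.23 and 0.34. Between control and sFlt1 mice of different numbers they ran from −0.40 to 0.27. With the replicate block edgeR called 0 members on either scale, and DESeq2 called 24 lower on the CPM scale, beside 5.95% of all genes, and 3 as shares (2 lower and 1 higher, beside 1.89% and 2.15% of receptors). The summed share difference with the replicate block was 0.20, a value the block cannot change because each number occurs once in each group.
The DESeq2 fits with a block, with a mouse left out and without the Xist libraries were chosen after seeing the data.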

Other observations

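The 10 members at the distal end of the largest run, Olfr507 to Olfr519 (chr7:108221021-108493627, GRCm39), took a larger share of receptor counts in 1 mouse of each group. Their summed share was 0.175%, 0.504% and 0.124% in controls and 0.140%, 0.152% and 0.605% in sFlt1 mice. Within its group, control replicate 2 had the highest share in 7 of the 10 members and sFlt1 replicate 3 in 9 of the 10, compared with 37 and 28 of the other 98 members. Olfr513 had 2, 187 and 2 counts in controls and 2, 13 and 124 in sFlt1 mice, and Olfr517 had 18, 108 and 21 and 2, 7 and 43. In control replicate 2 the exceptions were Olfr510, Olfr516 and Olfr519, with shares of 0.0117%, 0.00391% and 0.00167%. In sFlt1 replicate 3 the exception was Olfr512, at 0.0146% against 0.0148% in sFlt1 replicate 1. The run was chosen after its values were seen and has no test.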
